A study of Mus musculus with 13 samples.

Results

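The Ikaros family is a small group of zinc-finger transcription factors named for Ikaros, the product of *Ikzf1*. Its members were taken as the genes *Ikzf1* to *Ikzf5*, found by symbol in both count tables, 5 of 24417 genes. They were described in sorted T cells of C57BL/6 mice, from spleen and lymph node, profiled by bulk RNA-seq in 13 libraries. Control Treg cells (n = 3) came from healthy male *Foxp3*DTR-GFP/y *Cd4*creERT2 mice, whose *Foxp3* allele is functional. Rescued Treg cells (n = 3) came from male *Foxp3*LSL/y *Cd4*creERT2 mice, in which a floxed Thy1.1 reporter and STOP cassette block *Foxp3* until tamoxifen-activated Cre, driven in *Cd4*-expressing cells, removes them. Treg “wannabes” (n = 2) came from diseased male *Foxp3*LSL/y *Cd4*wt mice without Cre, whose cells transcribe the *Foxp3* locus but make no Foxp3 protein. All male mice received 4-hydroxytamoxifen on postnatal day 14 and were 21 days old when the cells were sorted. Resting “wannabes” (n = 3) came from female *Foxp3*LSL/WT *Cd4*wt mice, which keep Treg cells made from the intact allele. Activated “wannabes” (n = 2) came from female *Foxp3*LSL/DTR *Cd4*wt mice, sick after ablation of the Treg cells that carry the diphtheria toxin receptor. The female mice, 9 to 11 weeks old by the labels, had received diphtheria toxin on 4 days of the week before, 7, 5, 3 and 1 days ahead of sorting. The methods describe the replicates as biological. All compared populations apart from the control Treg cells carry the LSL allele, and no rescued Treg library from a healthy mouse was analysed here, so in male mice inflammation, the *Foxp3* allele and late *Foxp3* induction cannot be told apart.

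Ikaros family proteins bind DNA through fingers near the amino terminus and pair with themselves and with each other through fingers at the carboxyl terminus. They act largely as repressors, by recruiting NuRD, Sin3 and CtBP corepressor complexes, and have long been studied in lymphocyte development. *Ikzf1* encodes Ikaros, which is needed for lymphoid lineages. *Ikzf2* encodes Helios, characteristic of thymus-derived Treg cells and known for holding Treg cells stable during inflammation. *Ikzf3* encodes Aiolos, known from B cell maturation and as a repressor of *Il2* in helper T cells. *Ikzf4* encodes Eos, a partner of Foxp3 in gene silencing, and *Ikzf5* encodes Pegasus, the most divergent member. Ikaros and Aiolos are the classical targets of thalidomide-like drugs, which redirect the cereblon ubiquitin ligase to them.

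The similarity of the members bears on whether their reads can be told apart. The coding sequence of the second zinc finger, part of the DNA-binding region, is shown from the GENCODE M21 transcripts of GRCm38, with capitals marking bases that differ from *Ikzf1*.
*Ikzf1*: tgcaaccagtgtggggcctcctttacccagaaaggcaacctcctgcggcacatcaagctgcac
*Ikzf2*: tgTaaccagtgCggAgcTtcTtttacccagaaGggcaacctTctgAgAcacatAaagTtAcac
*Ikzf3*: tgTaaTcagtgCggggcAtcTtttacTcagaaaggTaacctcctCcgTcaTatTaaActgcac
*Ikzf4*: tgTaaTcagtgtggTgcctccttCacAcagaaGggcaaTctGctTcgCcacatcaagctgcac
*Ikzf5*: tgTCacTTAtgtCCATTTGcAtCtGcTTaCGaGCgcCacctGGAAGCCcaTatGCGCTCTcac
Of the 63 bases, 12 differed from *Ikzf1* in *Ikzf2*, 12 in *Ikzf3* and 10 in *Ikzf4*, and none of these changed any of the 21 encoded residues. In *Ikzf5*, 37 bases and 16 residues differed. A search of the translated coding sequences for the classical Cys-Cys-His-His finger pattern found 6 matches in *Ikzf1* and *Ikzf2*, and 5 each in *Ikzf3*, *Ikzf4* and *Ikzf5*. Across whole transcripts, the longest exact run shared by any pair of members was 32 bases, between *Ikzf2* and *Ikzf4*, in an untranslated repeat of *Ikzf2*. Only the longest run of each pair was sought, and the longest of these in coding sequence was 26 bases, between *Ikzf1* and *Ikzf3*. No stretch as long as one sequencing read was shared by any pair.

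The members lie apart in GRCm38. *Ikzf1* (ENSMUSG00000018654.17) spans 11685003 to 11772926 on the plus strand of chromosome 11. *Ikzf3* (ENSMUSG00000018168.8) is on the minus strand of the same chromosome, from 98464902 to 98546031. *Ikzf2* (ENSMUSG00000025997.13) spans 69531214 to 69687245 on chromosome 1, *Ikzf4* (ENSMUSG00000002578.17) 128630843 to 128645991 on chromosome 10, and *Ikzf5* (ENSMUSG00000040167.16) 131388652 to 131410521 on chromosome 7, all on the minus strand. Values are counts over the whole gene, so the isoforms for which Ikaros and Helios are known were not separated.

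Total counts per library lay between 25558402 and 36660933. Over members and libraries the counts ran from 629 to 46350, and all 5 passed the filter on low counts in both tables. Levels are given as CPM, the count of a gene relative to the TMM-scaled size of its library. *Foxp3* was at 865 to 1109.7 CPM in rescued Treg cells, 167 to 252 in control Treg cells, and 52.8 to 99.8 over the “wannabe” libraries of both sexes, so transcripts of the blocked locus were counted too. *Thy1*, whose product Thy1.1 reports the blocked allele, was at 36.4 to 46.7 CPM in the 2 Treg populations and at 175.7 to 327 in the “wannabes”. The T cell markers *Cd3d*, *Cd3e*, *Cd3g*, *Cd4*, *Cd5* and *Lck* were all detected and summed to between 4213.5 and 6760 CPM in every library. Dendritic cell markers summed to at most 8.04 CPM, erythroid markers to at most 16.2, and markers of CD8 T and NK cells to between 12.3 and 34.6.

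Across the 4 pairwise comparisons, *Ikzf2* and *Ikzf3* each passed the test in 3, *Ikzf5* in 1, and *Ikzf1* and *Ikzf4* in none (edgeR's quasi-likelihood test, Benjamini-Hochberg adjusted over all genes, threshold 0.05). *Ikzf2* was higher in both Treg populations than in “wannabes” of male mice, and higher in activated than in resting “wannabes”. *Ikzf3* was higher in rescued Treg cells than in control Treg cells or “wannabes”, but lower in activated than in resting “wannabes”. The plots of levels and of fold changes show these shifts. In bulk samples, fewer cells that express a gene and less RNA per cell cannot be told apart.

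**Figure D1:**
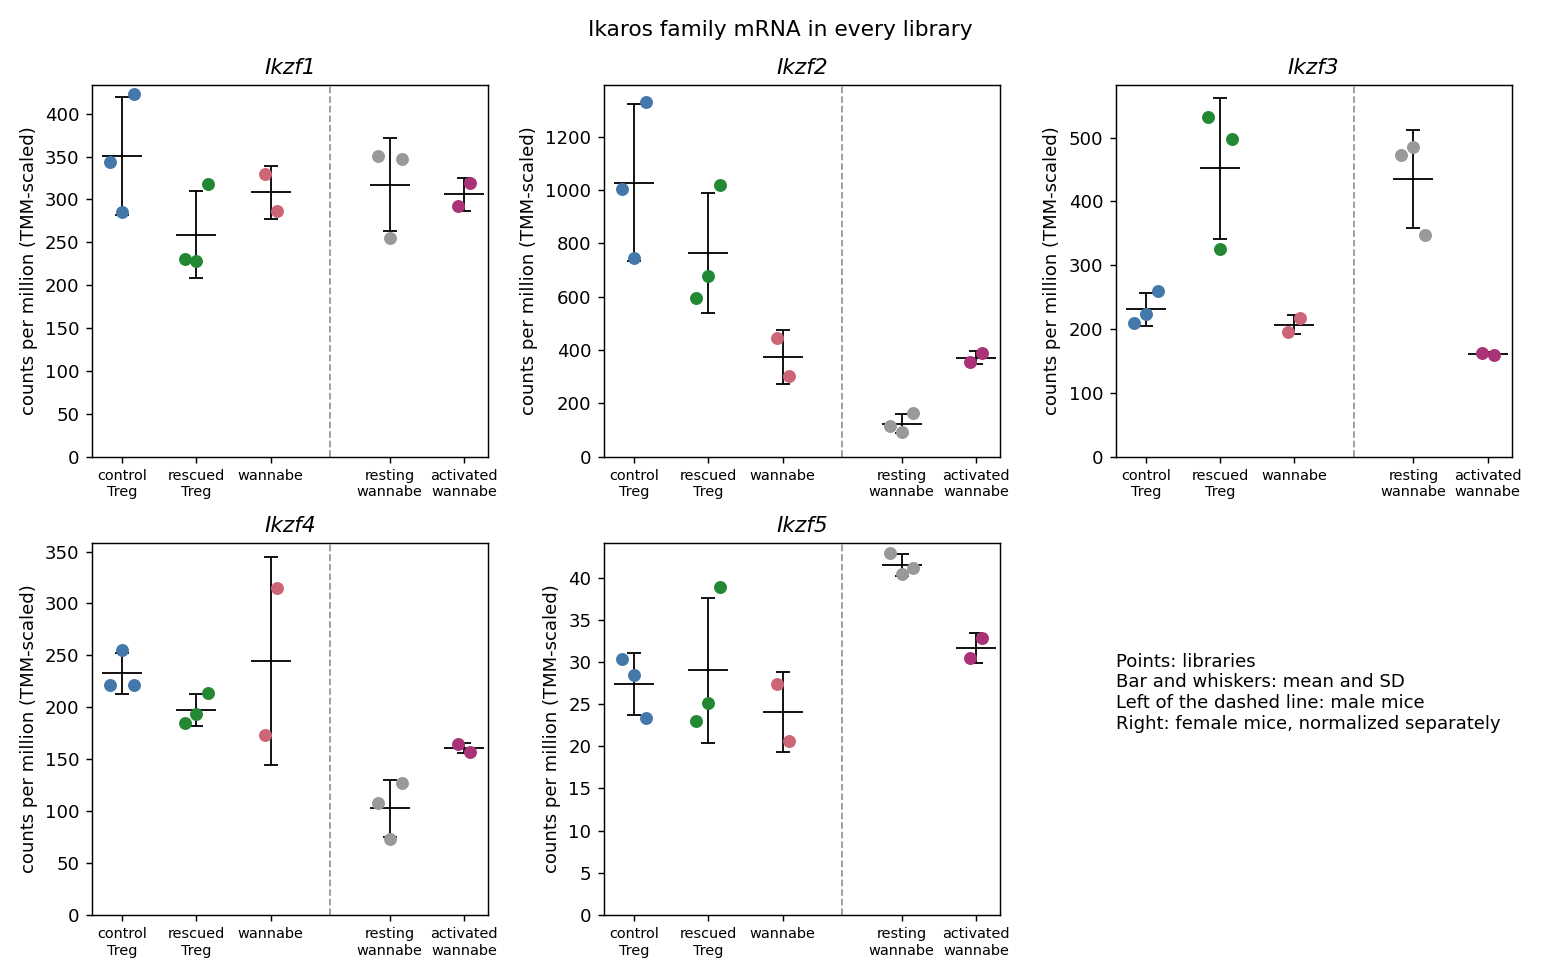
Level of each Ikaros family mRNA in every library, in TMM-scaled CPM on linear axes from 0; points are libraries, bars and whiskers the mean and SD, and the dashed line parts the male from the separately normalized female libraries. *Ikzf2* lies between 746 and 1333 in control Treg cells and between 93.5 and 162 in resting “wannabes”, while *Ikzf3* is at 326 to 532.5 in rescued Treg cells and at 159 and 162 in activated “wannabes”.

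The count of members called has to be read against the share of all genes called. Between rescued and control Treg cells 1 of 5 members was called, beside 2.3% of 14925 genes tested (1.43% higher and 0.864% lower). Both figures depend on the processing, since no member was called in 5 of the 8 fits that left out 1 library, and the 343 genes called in all became 114 to 187 without 1 control or rescued library and 1195 with DESeq2. Between control Treg cells and “wannabes” it was 1 of 5 beside 16.2% (9.92% higher and 6.27% lower), and between rescued Treg cells and “wannabes” 2 of 5 beside 14.1% (10% higher and 4.06% lower). Between activated and resting “wannabes” 3 of 5 members were called beside 22.5% of 13166 genes (11.3% higher and 11.2% lower). The 3 comparisons in male mice share libraries with each other. The median log2 fold change of the 5 members was -0.24, 0.19, 0.27 and -0.05 in these comparisons, against -0.03, 0.09, 0.00 and -0.01 over all genes tested.

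**Figure D2:**
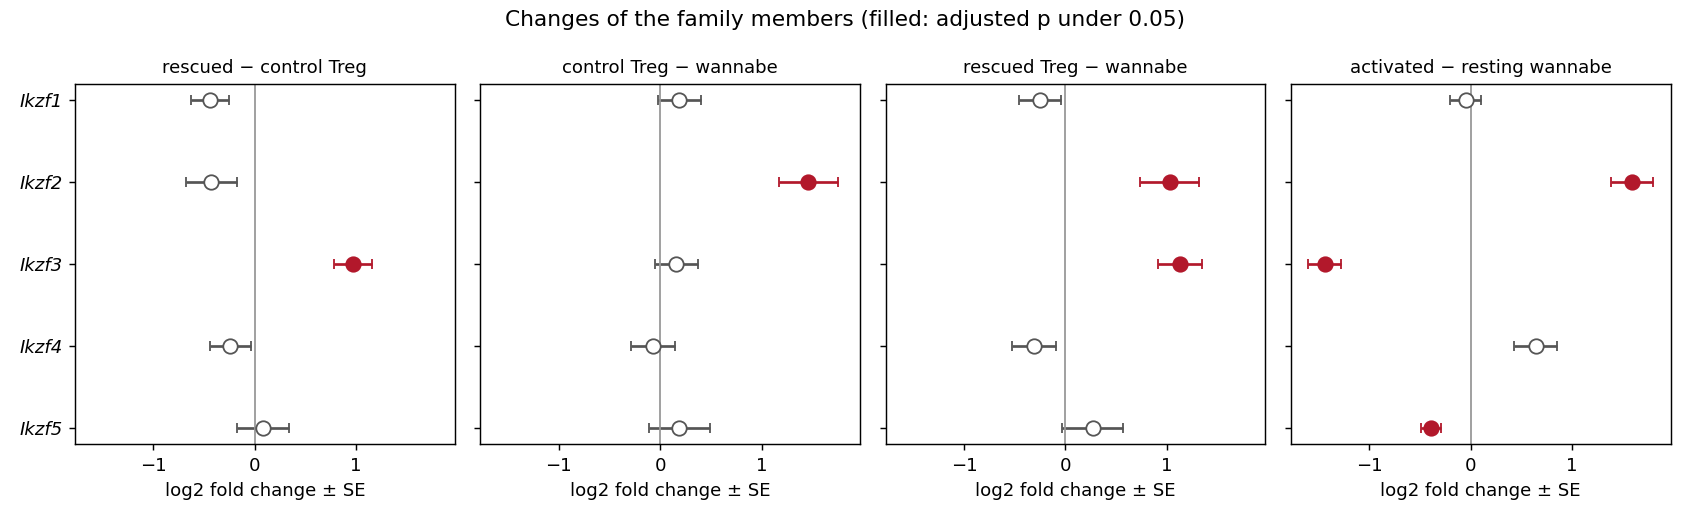
Log2 fold change of each member (horizontal axis) with its SE in the 4 pairwise comparisons, from the edgeR fits; filled points have an adjusted p under 0.05. *Ikzf3* lies at 0.97 between rescued and control Treg cells and at -1.44 between activated and resting “wannabes”, and is also filled at 1.13 between rescued Treg cells and “wannabes”; *Ikzf2* is filled at 1.46, 1.03 and 1.59, and *Ikzf5* at -0.39 in activated “wannabes”.

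*Ikzf2*, the Helios gene, was the member with the widest span of levels. It stood at 1005, 746 and 1333 CPM in the control Treg libraries, at 595, 679.6 and 1018 in rescued Treg cells, and at 445 and 302 in the male “wannabes”. Control and rescued libraries overlapped, whereas every Treg library lay above both “wannabe” libraries, as was the case for 25.4% of genes for control and 22% for rescued Treg cells. Control Treg cells had 2.75 times the *Ikzf2* level of “wannabes” (log2 fold change 1.46 ± 0.29 SE, adjusted p = 0.00713, edgeR's quasi-likelihood test). This call held in each of the 8 fits that left out 1 library. The sum of 6 myeloid markers was also higher, at 4.45 to 10.9 CPM in control, 2.37 to 8.47 in rescued and 0.985 and 1.63 in “wannabe” libraries, where 3 of 6 were at 0. Most of it was *Itgam*, at 3.28 to 10.4 CPM in control and 0.0859 and 0.887 in “wannabe” libraries, while *Lyz2* and *Adgre1* overlapped between them. The sum of dendritic cell markers went the other way, from 0.863 to 1.93 CPM in control to 7.36 and 4.20 in “wannabe” libraries. Among them *Zbtb46* overlapped between these groups, while *Xcr1* was at 0.115 to 1.86 CPM in control and 6.30 and 3.02 in “wannabe” libraries (-2.58, adjusted p = 0.117, edgeR). *Klrb1c*, an NK cell marker (-2.85, adjusted p = 0.0263), and *Hba-a1*, a haemoglobin gene of red cells (-3.17, adjusted p = 0.0483), were likewise lower in control Treg cells by edgeR, at 0.417 to 1.32 against 4.61 and 6.83 CPM and at 0.259 to 0.785 against 1.58 and 7.73 CPM. The part of these markers in the result was not tested.

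Rescued Treg cells had 2.04 times the *Ikzf2* level of “wannabes” (log2 fold change 1.03 ± 0.29 SE, adjusted p = 0.0352, edgeR). This call did not hold without the control Treg library 1 (adjusted p = 0.059), the rescued library 3 (log2 fold change 0.77, adjusted p = 0.104) or the “wannabe” library 2 (0.73, adjusted p = 0.198). It was also not made when only these populations were fitted (1.01, adjusted p = 0.0526). Between rescued and control Treg cells the difference in *Ikzf2* was -0.43 ± 0.25 SE and did not pass the test (adjusted p = 0.451, edgeR). *Ikzf2* thus separated both Treg populations from “wannabes” of male mice, with the firmer call for control Treg cells.

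In female mice *Ikzf2* was at 115.5, 93.5 and 162 CPM in resting “wannabes” and at 354.5 and 389 in activated ones. Both activated libraries lay above all resting libraries, as for 27.9% of genes. The level in activated cells was 3.00 times that in resting cells (log2 fold change 1.59 ± 0.21 SE, adjusted p = 0.00413, edgeR), a call made in all 5 fits that left out 1 library. B cell markers moved with it. The sum of 6 such markers, all detected, was 10.2 to 12.3 CPM in resting and 22.6 and 24.8 in activated libraries. Most of it was *Cd79b*, at 7.53 to 8.79 against 20.3 and 21.9 CPM, while *Ms4a1* stayed at or below 0.425 CPM in every female library. Dendritic cell markers summed to 3.30 to 4.40 CPM in resting and 5.92 and 8.04 in activated libraries, and markers of CD8 T and NK cells to 12.3 to 15.4 and to 18.1 and 17.7. The part of these marker lists in the result was not tested.

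*Ikzf3*, the Aiolos gene, had its high levels elsewhere. Control Treg libraries held 209, 224 and 259 CPM, rescued Treg libraries 532.5, 326 and 497, and male “wannabes” 196 and 218. All 3 rescued libraries were above every other male library, and the control and “wannabe” libraries overlapped. *Ikzf3* was 1.96 times as high in rescued as in control Treg cells (log2 fold change 0.97 ± 0.19 SE, adjusted p = 0.0229, edgeR's quasi-likelihood test). The libraries of both groups were separated in this direction for 12.6% of the tested genes, and those of rescued Treg cells and “wannabes” for 22%.

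The call between rescued and control Treg cells was made in 3 of the 8 fits that left out 1 library. It was lost without control library 1 (log2 fold change 0.90, adjusted p = 0.124), control library 2 (0.95, adjusted p = 0.104), control library 3 (1.06, adjusted p = 0.0623), rescued library 1 (0.84, adjusted p = 0.0997) or rescued library 3 (0.90, adjusted p = 0.0711), all by edgeR. The log2 fold change of *Ikzf3* stayed between 0.84 and 1.17 in these fits. Against “wannabes”, *Ikzf3* in rescued Treg cells was 2.19 times as high (1.13 ± 0.22 SE, adjusted p = 0.00533, edgeR), which held in all 8 fits. Between control Treg cells and “wannabes” the difference was 0.16 ± 0.21 SE (adjusted p = 0.653, edgeR). Within male mice the high *Ikzf3* level was therefore seen in rescued Treg cells, and a difference between control Treg cells and “wannabes” was not detected. B cell markers summed to 38.2 to 42.6 CPM in rescued, 33.2 to 44.9 in control and 34.9 and 44.2 in “wannabe” libraries, and these sums overlap. Within them *Cd79b* was at 31.9 to 38.1 CPM in rescued and 21.7 to 29.9 in control libraries, without overlap (0.36, adjusted p = 0.48, edgeR). *Klrb1c* was at 1.34 to 4.78 and 0.417 to 1.32 CPM, also without overlap (1.96, adjusted p = 0.189, edgeR). Dendritic cell markers summed to 1.94 to 3.56 CPM in rescued and 0.863 to 1.93 in control libraries. The part of these markers in the result was not tested.

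In female mice the levels of *Ikzf3* ran the other way. Resting “wannabes” held 472, 486 and 347 CPM and activated “wannabes” 162 and 159. Both activated libraries lay below all resting libraries, as for 28.6% of genes, by 2.71-fold (log2 fold change -1.44 ± 0.16 SE, adjusted p = 0.00193, edgeR), in all 5 fits that left out 1 library. Plasma cell markers moved in the same direction. The sum of *Jchain*, *Sdc1* and *Tnfrsf17* was 9.20 to 24.1 CPM in resting libraries and 0.669 and 0.965 in activated libraries, where *Tnfrsf17* was at 0. *Sdc1* was at 4.17 to 7.76 against 0.386 and 0.446 CPM, and *Jchain* at 1.44 to 19.9 against 0.223 and 0.579. Their part in the fall of *Ikzf3* was not tested.

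*Ikzf4*, the Eos gene, was at 221.2, 255 and 221.1 CPM in control Treg cells, at 185, 193 and 214 in rescued Treg cells, and at 174 and 315 in male “wannabes”. The control libraries all lay above the rescued libraries, with a log2 fold change of -0.24 ± 0.20 SE that did not pass the test (adjusted p = 0.653, edgeR), and 11.6% of tested genes had the same non-overlap. The 2 “wannabe” libraries enclosed all 6 Treg libraries. Without “wannabe” library 1, the difference between rescued Treg cells and “wannabes” was -0.68 (adjusted p = 0.0269, edgeR), and without library 2 it was 0.14, so these libraries decide its sign.

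In female mice *Ikzf4* was at 108, 73.3 and 127 CPM in resting and at 164 and 157 in activated “wannabes”. The activated libraries were all higher, as for 27.9% of genes, and the log2 fold change was 0.64 ± 0.21 SE (adjusted p = 0.0726, edgeR). The test was passed without resting library 2 (adjusted p = 0.0331) or resting library 3 (adjusted p = 0.0314), and with DESeq2 (0.65, adjusted p = 0.0195). It was also passed with replicate number as a block in the fit. *Ikzf4* therefore lay near the threshold in the activated “wannabes”, and no difference of it was detected between the male populations with all libraries.

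*Ikzf1*, the founding member, overlapped between the groups in all 4 comparisons. It stood at 344, 285 and 423 CPM in control Treg cells, 230.5, 228 and 318 in rescued Treg cells, and 330.0 and 286.5 in male “wannabes”. In the female libraries it was at 350.4, 255 and 347 CPM in resting and 292 and 319.5 in activated “wannabes”. The log2 fold changes were -0.44 ± 0.19 SE between rescued and control Treg cells (adjusted p = 0.272), 0.19 between control Treg cells and “wannabes” (0.585), -0.25 between rescued Treg cells and “wannabes” (0.459), and -0.05 between activated and resting “wannabes” (0.824), with adjusted p from edgeR in parentheses.

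*Ikzf5*, the Pegasus gene, was at 30.4, 28.4 and 23.4 CPM in control Treg cells, at 23.0, 25.1 and 38.9 in rescued Treg cells, and at 27.4 and 20.7 in male “wannabes”. None of the 3 comparisons in male mice passed the test, with log2 fold changes of 0.08, 0.19 and 0.27. In female mice it was at 42.9, 40.4 and 41.1 CPM in resting and at 30.4 and 32.9 in activated “wannabes”, all lower as for 28.6% of genes (log2 fold change -0.39 ± 0.10 SE, adjusted p = 0.0353, edgeR). This call was lost in 4 of the 5 fits that left out 1 library, and held (adjusted p = 0.0406) without resting library 2. With no filter on low counts the adjusted p was 0.0539, and the call was also lost with replicate number as a block in the fit.

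The counts of *Ikzf5* are uncertain for a further reason. *Pstk*, which encodes the kinase that prepares selenocysteine transfer RNA, lies on the opposite strand, and 81.3% of the annotated exon bases of *Ikzf5* overlap exons of *Pstk*. Over these shared bases, reads of the pair cannot be told apart from the counts. *Pstk* itself was at 18.6, 21.8 and 16.8 CPM in resting and at 18.4 and 15.3 in activated “wannabes”, which differed by -0.18 ± 0.17 SE on the log2 scale (adjusted p = 0.484, edgeR). *Ikzf2* shared 1.24% of its exon bases and *Ikzf4* 0.617% with an antisense or long noncoding gene, and *Ikzf1* and *Ikzf3* none.

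The contrast of both changes asks whether the members moved alike in Treg cells and “wannabes” from inflamed against healthy mice. Over all 13 libraries, the change of activated against resting “wannabes” minus that of rescued against control Treg cells was 2.00 ± 0.39 SE on the log2 scale for *Ikzf2* (adjusted p = 0.0213, edgeR). For *Ikzf3* it was -2.42 ± 0.28 SE (adjusted p = 0.00111, edgeR). These were 2 of 5 members, beside 1.53% of 15201 genes tested (0.73% higher and 0.803% lower). The difference was 0.87 for *Ikzf4* (adjusted p = 0.242), 0.37 for *Ikzf1* (0.627) and -0.49 for *Ikzf5* (0.568), by edgeR.

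The *Ikzf3* difference was called in all 13 fits that left out 1 library. That of *Ikzf2* was called in 7, and was not called without control library 3 (adjusted p = 0.0589), rescued library 2 (0.0561), resting library 1 (0.0582), resting library 2 (0.0515), activated library 1 (0.0772) or activated library 2 (0.0991), by edgeR. The log2 difference stayed between 1.75 and 2.25. Sex, age, the *Foxp3* alleles compared, late *Foxp3* induction, the agent given and the table differ between both changes. They cannot be told apart from the state of the cells.

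Levels of different members can be compared only per length, here as CPM per kilobase of the longest annotated transcript. In control Treg cells the order was *Ikzf2* (110.8 ± 31.7), *Ikzf1* (67.9 ± 13.4), *Ikzf3* (50.1 ± 5.58), *Ikzf4* (45.2 ± 3.83) and *Ikzf5* (6.18 ± 0.819; mean ± SD, n = 3). Between libraries, neighbours among the first 4 overlapped, and *Ikzf5* lay below all of them. Within each library *Ikzf2* lay above *Ikzf1* and *Ikzf1* above *Ikzf3*, while the order of *Ikzf3* and *Ikzf4* differed between libraries. In rescued Treg cells *Ikzf3* (98.1 ± 24.0) and *Ikzf2* (82.4 ± 24.2) overlapped at the top, followed without overlap by *Ikzf1* (50.2), *Ikzf4* (38.3) and *Ikzf5* (6.54). In male “wannabes” *Ikzf1*, *Ikzf4*, *Ikzf3* and *Ikzf2* had means between 40.3 and 59.7 and neighbours overlapped.

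In resting “wannabes” *Ikzf3* (94.4 ± 16.6 CPM per kilobase) led *Ikzf1* (61.5 ± 10.5), and *Ikzf4* (20.0) and *Ikzf2* (13.3) overlapped below them. Within each library *Ikzf4* lay above *Ikzf2*. In activated “wannabes” the order was *Ikzf1* (59.3), *Ikzf2* (40.1), *Ikzf3* (34.9) and *Ikzf4* (31.2), with no overlap between neighbours (n = 2). *Ikzf5* was last in all 5 populations, at a mean of 5.42 to 9.36 CPM per kilobase. The place of *Ikzf3* depends on the length used. With all annotated exons of a gene as its length, *Ikzf3* fell behind *Ikzf1* in resting “wannabes” (49.7 against 54.9 CPM per kilobase, with overlapping libraries), behind *Ikzf2* in rescued Treg cells and male “wannabes”, and behind *Ikzf4* in control Treg cells and activated “wannabes”.

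**Figure D3:**
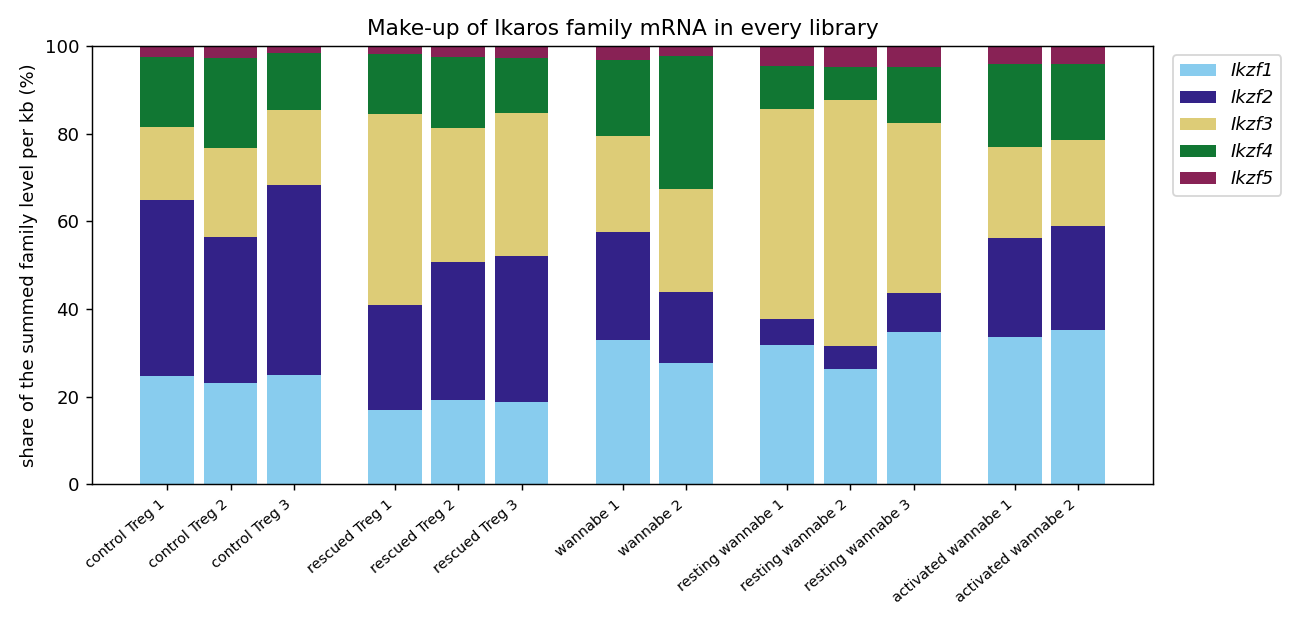
Share of each member in the summed Ikaros family level per kilobase, in percent, stacked for every library. *Ikzf2* takes 33.5 to 43.5% of the sum in control Treg cells and 5.36 to 9.01% in resting “wannabes”, where *Ikzf3* takes 38.8 to 56.0%.

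The shares describe the make-up of the family with no scaling between libraries. *Ikzf2* made up 39.0% ± 5.11 (SD) of the summed family level in control Treg cells, 29.7% ± 4.88 in rescued Treg cells and 20.5% ± 6.02 in male “wannabes”. *Ikzf3* made up 18.0% ± 1.90, 35.6% ± 6.95 and 22.7% ± 1.13 of the sum in the same order. Between resting and activated “wannabes” the share of *Ikzf3* went from 47.6% ± 8.62 to 20.2% ± 0.928, and that of *Ikzf2* from 6.73% ± 1.99 to 23.2% ± 0.812. *Ikzf1* held 18.2% ± 1.21 in rescued Treg cells and means of 24.2 to 34.3% in the other populations. The summed family level was 280.1 ± 45.8 CPM per kilobase in control and 275.5 ± 49.9 in rescued Treg cells, and 198 ± 4.81 in male “wannabes”. It was 198.5 ± 13.2 in resting and 172.5 ± 5.23 in activated “wannabes”.

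The ratio of *Ikzf3* to *Ikzf2* per kilobase within a library was chosen after the values were seen, and is given as a description. It was 0.419, 0.603 and 0.391 in control Treg cells, 1.80, 0.966 and 0.984 in rescued Treg cells, and 0.886 and 1.45 in male “wannabes”. All control libraries lay below all rescued and “wannabe” libraries, and the latter populations overlapped. In resting “wannabes” the ratio was 8.24, 10.5 and 4.31, and in activated ones 0.923 and 0.823. The first of these lay within, and the other below, the range of the rescued Treg and male “wannabe” libraries. Tables were normalized separately, but a ratio within a library does not depend on that scaling. It does depend on the lengths: with all annotated exons the ratio was 0.258 to 0.397 in control Treg cells, 0.636 to 1.19 in rescued Treg cells, 0.583 and 0.955 in male, 2.84 to 6.89 in resting, and 0.608 and 0.542 in activated “wannabes”, all lower by the same factor.

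**Figure D4:**
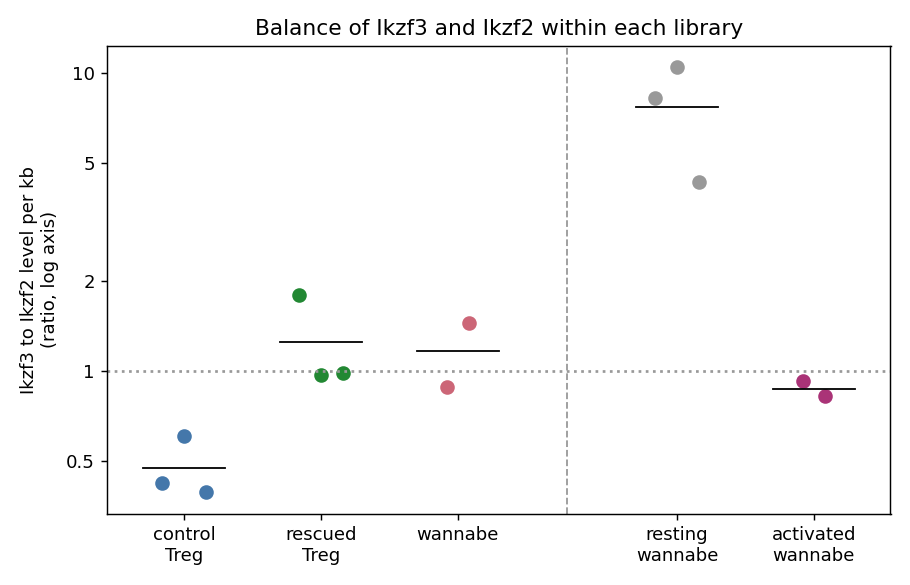
Ratio of the *Ikzf3* to the *Ikzf2* level per kilobase within each library on a log axis; points are libraries, lines the group means, the dotted line a ratio of 1, and the dashed line parts the male from the female mice. Control Treg libraries sit at 0.391 to 0.603 and resting “wannabes” at 4.31 to 10.5, with the other populations between them; with all annotated exons as lengths, every point sits lower by the same factor.

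The corepressor subunits that Ikaros proteins recruit were described with a list of 17 genes. None was called between rescued and control Treg cells (median log2 fold change 0.02, against -0.03 over all genes), where 2.3% of all genes were called. Control Treg cells had 5 of 17 higher than “wannabes” and none lower, led by *Hdac2*, a histone deacetylase of NuRD (1.80 ± 0.44 SE, adjusted p = 0.0184), *Mbd3*, its methyl-binding-domain scaffold protein (1.43 ± 0.38 SE, adjusted p = 0.0258), and *Chd3*, its remodelling ATPase (1.01 ± 0.25 SE, adjusted p = 0.0204), all by edgeR. Rescued Treg cells had 4 of 17 higher, with *Hdac2* at 2.47, *Mbd3* at 2.05 and *Mta2*, another NuRD subunit, at 1.21, and none lower. In these comparisons 9.92% and 10% of all genes were called higher, and 6.27% and 4.06% lower. The list's median was 0.07 in both, against 0.09 and 0.00 over all genes.

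Between activated and resting “wannabes” 3 of the 17 subunits were higher, *Gatad2a* (0.65), *Rbbp7* (0.46) and *Rbbp4* (0.27), beside 11.3% of all genes, and 1, *Chd3*, was lower (-0.65, adjusted p = 0.0097, edgeR), beside 11.2%. The list's median was 0.07, against -0.01 over all genes.

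Of the 5 genes of the cereblon ligase, none was called between rescued and control Treg cells or between activated and resting “wannabes”, beside 2.3% and 22.5% of all genes. *Cul4a*, its cullin scaffold, was higher in control (1.08) and rescued (1.19) Treg cells than in “wannabes”, and *Ddb1*, its adaptor, was lower (-0.94 and -0.85). These are 1 of 5 in each direction, beside 9.92% of all genes higher and 6.27% lower for control, and 10% higher and 4.06% lower for rescued Treg cells. *Ddb1* was at 222.0 ± 19.1 CPM in control Treg cells, 238 ± 11.8 in rescued Treg cells and 427 ± 0.394 in male “wannabes”. *Crbn*, which encodes the drug-binding cereblon, was called in no comparison.

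Among Foxp3 and 4 other factors that work with it, *Satb1*, a chromatin organizer, went with *Ikzf3* in rescued Treg cells and with *Ikzf2* in activated “wannabes”. It was at 267 ± 24.2 CPM in control and 581 ± 166 in rescued Treg cells (1.12 ± 0.20 SE, adjusted p = 0.0163, edgeR). In resting “wannabes” it was at 377 ± 126 and in activated ones at 1021 ± 129 CPM (1.44 ± 0.26 SE, adjusted p = 0.0127, edgeR). *Lef1*, a factor of less differentiated T cells, was lower in rescued than in control Treg cells (-0.64 ± 0.13 SE, adjusted p = 0.0264, edgeR), at 384 ± 41.1 against 597 ± 7.90 CPM. *Foxp3* itself was 4.55 times as high in rescued Treg cells.

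*Irf4*, a factor of activated and effector Treg cells, was lower in control (-0.66) and rescued (-0.99) Treg cells than in “wannabes”, and lower in activated than in resting “wannabes” (-1.02 ± 0.19 SE, adjusted p = 0.0136, edgeR). Between rescued and control Treg cells the difference was -0.33 (adjusted p = 0.397), and that between both changes was -0.71 (adjusted p = 0.234), by edgeR. *Gata1*, another known partner, was at 62.9 ± 13.2 CPM in control, 30.7 ± 10.5 in rescued and 71.4 ± 29.8 in “wannabe” libraries, and lower in rescued Treg cells than in “wannabes” (-1.22, adjusted p = 0.0293, edgeR). It was higher in activated than in resting “wannabes” (1.08, adjusted p = 0.0468, edgeR). *Foxp3* was lower there (-0.35, adjusted p = 0.0448, edgeR). In all, 2 of 5 of these factors were higher and 1 lower in rescued against control Treg cells, 1 and 1 in control Treg cells against “wannabes”, and 2 and 2 both in rescued Treg cells against “wannabes” and in activated against resting “wannabes”. The shares of all genes called higher and lower were 1.43% and 0.864%, 9.92% and 6.27%, 10% and 4.06%, and 11.3% and 11.2%. For the difference between both changes 1 was higher and 1 lower, beside 0.73% and 0.803%.

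Of 13 genes known to be regulated by the family in lymphocytes, 12 could be tested in male and 11 in female mice. In rescued against control Treg cells 3 were higher and 1 lower, beside 1.43% and 0.864% of all genes. *Il10*, an anti-inflammatory cytokine, was at 77.4 ± 11.4 against 12.7 ± 2.47 CPM (2.60 ± 0.22 SE, adjusted p = 0.0004, edgeR). *Tbx21*, which encodes T-bet, rose by 2.27 and *Il7r*, the interleukin-7 receptor, by 1.01 on the log2 scale. *Bcl2*, a survival factor, fell from 566 ± 38.9 to 266.5 ± 29.8 CPM (-1.09 ± 0.15 SE, adjusted p = 0.00646, edgeR). The list's median was -0.20, against -0.03 over all genes.

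Against “wannabes”, control Treg cells had none of the 12 higher and 2 lower, *Il10* (-2.17) and *Il7r* (-0.74), beside 9.92% and 6.27% of all genes. Rescued Treg cells had *Tbx21* higher (2.88) and *Bcl2* (-1.01) and *Myc*, a growth regulator (-0.78), lower, beside 10% and 4.06% of all genes. In activated against resting “wannabes” *Tbx21* (3.10 ± 0.21 SE, adjusted p = 0.000465, edgeR) and *Dtx1*, a Notch pathway ubiquitin ligase (0.98), were higher, and *Il10* (-0.94) and the cell cycle inhibitor *Cdkn1b* (-0.40) lower, beside 11.3% and 11.2% of all genes. *Tbx21* thus went up where *Ikzf3* went up, in rescued Treg cells, and also where it went down, in activated “wannabes”. The medians of the list were -0.16, -0.14 and 0.18 in these comparisons, against 0.09, 0.00 and -0.01 over all genes.

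*Il2*, the cytokine gene that Ikaros and Aiolos are known to repress, was scarce, and near or below the floor of 3 counts in the rescued Treg libraries. It was at 0.0654, 0.334 and 0.345 CPM in control Treg cells, at 0.0288, 0.079 and 0.084 in rescued Treg cells (1, 2 and 3 counts), and at 1.35 and 0.69 in male “wannabes”. In female mice it was at 0.177, 0.721 and 0.910 CPM in resting and at 1.21 and 3.31 in activated “wannabes”. Both male “wannabe” libraries lay above all Treg libraries, as for 20.7% of genes in each comparison, and both activated above all resting libraries, as for 27.9%. None of these differences passed the test (adjusted p = 0.587 for rescued against control, 0.381 for control and 0.127 for rescued Treg cells against “wannabes”, and 0.0998 for activated against resting, edgeR).

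The genes whose log2 CPM followed each member most closely over the 8 male libraries were found among 10785 genes, by Pearson's r, as a description. For *Ikzf2* they were *Xpr1* (0.993), *Tra2a* (0.990) and *Dock10* (0.988), and for *Ikzf3* *Pkmyt1* (0.994), *Elf4* (0.979) and *Sema4b* (0.975). For *Ikzf1* they were *Tet2* (0.963), *Synj1* (0.962) and *Rint1* (0.948), and for *Ikzf4* *Twf2* (0.978), *Trim56* (0.971) and *Trappc2l* (0.964). The closest to *Ikzf5* were *Polk* (0.873), *Zfp599* (0.857) and *Hira* (0.856). The libraries fall into 3 populations and share their preparation and depth, so any gene that separates these populations alike ranks high. With 5 female libraries, values of r were not given there. Its sign there was negative for *Xpr1*, *Tra2a*, *Dock10*, *Pkmyt1*, *Elf4*, *Trim56*, *Trappc2l*, *Zfp599* and *Hira*, and positive for the others.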

How the data were processed

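Doubly sorted TCRβ+CD4+ cells were profiled in 8 libraries from male and 5 from female mice, by low-input RNA-seq of amplified full-length cDNA. The authors aligned reads with STAR 2.7.3a to GRCm38, followed by local realignment and read counting, and deposited the raw counts of each gene, which are not normalized. The gene annotation and strand setting are not given in the sources used here. Of 24421 entries in a table, 4 had no gene name (0.00353 to 0.00841% of counts) and were left out. Libraries were grouped by their titles and genotypes, which give 3 resting and 2 activated libraries where the design text of the series gives 2 and 3. Male count columns carry no titles: those headed DTR, GFP and Thy1 were matched to control Treg, rescued Treg and “wannabe” libraries by the alleles and sort markers in the labels and methods. Replicates of a population correlated at 0.934 to 0.947 in male and 0.978 to 0.987 in female mice, and none was a repeat of another.

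Each table was fitted whole in R 4.3.3 with edgeR 4.0.16 (TMM normalization, filterByExpr, quasi-likelihood test, two-sided, Benjamini-Hochberg over all genes tested, threshold 0.05), with all male populations in one fit. The biological coefficient of variation came to 0.510 for male and 0.171 for female mice. The difference between both changes was fitted over all 13 libraries. CPM are scaled by TMM library size. Lengths, coordinates and sequences come from GENCODE M21. SEs come from the edgeR fit, with variation between libraries estimated over all populations of a fit and partly shared across genes. Reads without molecular identifiers are not independent molecules. Alternatives were DESeq2 1.42.0, its size factors in edgeR, no filter on low counts, a mean normalized count over 100, a replicate block, fits of only the populations compared, union exon lengths and leaving out each library. The steps were tested on simulated data.

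The members and gene lists were chosen with earlier results of these data known. Named were all members, *Foxp3* and *Thy1*, per list and comparison up to 3 called genes in each direction, *Il2* and *Irf4*, and for each member the 3 genes with the highest r over male libraries (mean normalized count over 100, log2 CPM with a prior count of 2). *Pstk* was added after its overlap with *Ikzf5* was seen. *Crbn*, *Ms4a1*, *Cd79b*, *Klrb1c*, *Hba-a1*, *Sdc1*, *Jchain*, *Tnfrsf17*, *Itgam*, *Lyz2*, *Adgre1*, *Xcr1* and *Zbtb46* are named for their role in a list.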

Additional observations from a re-analysis of the deposited data

Results flagged for a closer look

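A difference between the change of activated against resting “wannabes” and that of rescued against control Treg cells was called in edgeR's test of the difference for 2 of 5 members, 2 of 5 Foxp3 and partner genes and 3 of 12 tested regulated genes, on the log2 scale and with Benjamini-Hochberg adjustment over all genes. None of 17 corepressor and 5 cereblon ligase genes was called, and 0.73% of all genes were called higher and 0.803% lower. *Ikzf2* differed by 2.00 (adjusted p = 0.0213), from a change of -0.43 in Treg cells and 1.59 in “wannabes”. *Ikzf3* differed by -2.42 (adjusted p = 0.00111), from 0.97 in Treg cells and -1.44 in “wannabes”. *Foxp3* differed by -2.55 (adjusted p = 0.000638). *Gata1* differed by 2.11 (adjusted p = 0.0457) and *Bcl2* by 1.37 (adjusted p = 0.013). *Il10* differed by -3.56 (adjusted p = 0.000638) and *Il7r* by -1.26 (adjusted p = 0.033). Sex, age, *Foxp3* alleles, late *Foxp3* induction, agent and table cannot be told apart from the state of the cells in any of them. Groups held 2 or 3 libraries, too few for a test of single outlying libraries.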

How the results depend on the processing

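DESeq2's size factors in edgeR and a mean normalized count over 100 changed no call of a member. The gene lists were not refitted under the alternatives. With DESeq2 *Ikzf4* was called between activated and resting “wannabes” (0.65, adjusted p = 0.0195), and with no filter on low counts *Ikzf5* was not (-0.39, adjusted p = 0.0539). With only the populations compared in the fit, 1 member was called between rescued Treg cells and “wannabes”, since *Ikzf2* (1.01, adjusted p = 0.0526) was not. The cause was not tested.

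Replicate numbers named the libraries only: deviations of same-numbered libraries from their group means correlated at -0.03 to 0.08. With the replicate block, *Ikzf1* between activated and resting “wannabes” was at 0.03, *Ikzf4* at 0.85 (adjusted p = 0.0132, called) and *Ikzf5* at -0.40 (adjusted p = 0.119, not called), and no other call of a member changed. All genes called under the block numbered 426 for rescued against control Treg cells, 2304 and 1968 for control and rescued Treg cells against “wannabes”, 2045 for activated against resting and 229 for the difference.

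With union exon length in place of the longest transcript, the share of *Ikzf1* was 27.6% in control Treg cells, 22.4% in rescued Treg cells, 34.7% in male, 39.1% in resting and 39.0% in activated “wannabes”. That of *Ikzf3* was 12.1, 25.9, 15.3, 35.9 and 13.5% in the same order. The share of *Ikzf4* was 16.7% in rescued Treg cells and 19.8% in activated “wannabes”, and that of *Ikzf5* 5.21% in resting “wannabes”. By this length the order of 9 of 10 pairs of members was kept in each population, and the pair that turned held *Ikzf3* in each.

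Leaving out each library, with a lone library assumed to vary like the other groups, 0 to 1 members were called between rescued and control Treg cells, 1 to 3 between rescued Treg cells and “wannabes”, and 1 to 2 for the difference of changes. Log2 fold changes ranged over 0.84 to 1.17 for *Ikzf3* and -0.19 to 0.22 for *Ikzf5* between rescued and control Treg cells. They ranged over -0.44 to 0.37 for *Ikzf4* and -0.05 to 0.40 for *Ikzf5* between control Treg cells and “wannabes”, and over 0.73 to 1.33 for *Ikzf2* and -0.68 to 0.14 for *Ikzf4* between rescued Treg cells and “wannabes”. Between activated and resting “wannabes” they ranged over -0.19 to 0.03 for *Ikzf1*, 0.45 to 0.83 for *Ikzf4* and -0.46 to -0.34 for *Ikzf5*, and the difference for *Ikzf2* over 1.75 to 2.25. The counts of all genes called moved more. DESeq2 called 1195, 3751 and 3316 genes in the male comparisons and 792 for the difference, against 343, 2416, 2105 and 233. Between rescued and control Treg cells 612 were called with no filter and 580 with only these populations. Without 1 control or rescued library it was 114 to 187 there, and without 1 “wannabe” library 598 or 590. Between control Treg cells and “wannabes” it was 1549 to 1588 without 1 control library. Between activated and resting “wannabes” it was 751 or 797 without one activated library, against 2958, and the difference had 49 or 44 without an activated library, 139 or 144 without resting library 1 or 2, and 425 or 430 without a male “wannabe” library. With 2 or 3 libraries a group, a missed call does not show that levels were alike.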
